A study of Mus musculus with 9 samples.

Results

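The imprinted growth genes are 9 genes, Mest, Cdkn1c, Grb10, Phlda2, Dlk1, Peg3, Plagl1, Ndn and H19, that were listed by symbol in the table of probeset values. Where a gene had several probesets the one of highest average signal was to be read, and 19938 genes were measured in all. A value was found for 8 of the 9, each from its only probeset. No probeset carried the symbol H19 alone, and H19, a maternally expressed noncoding RNA, was not analysed here.

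Cells were primary cultures of urogenital sinus (UGS) mesenchyme, the fetal connective tissue from which the stroma of the prostate forms, taken from male CD-1 mouse fetuses on gestation day 17 and used at first passage. Per the labels, the medium held hormone-stripped serum and 690 pM dihydrotestosterone (DHT) for 3 days before treatment, and DHT stayed in every group. Cells were then treated for 4 days with ethanol vehicle, 10 pM estradiol (E2) or 100 pM E2, and RNA of each group was read on 3 Affymetrix mouse ST 1.0 arrays. Whether the 3 replicates of a group were grown as separate cultures is not stated, and the p-values therefore cover only the spread between these arrays, which may be technical. Cells of CD-1 mice, an outbred stock, were taken at only 1 fetal age, and no group lacked DHT.

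Imprinted genes are transcribed mainly or only from the copy inherited from 1 parent, and many of them act on fetal growth. In the mouse, Cdkn1c, Grb10, Phlda2 and H19 are expressed mostly from the maternal copy, and members of this group tend to restrain growth. Mest, Dlk1, Peg3, Plagl1 and Ndn are expressed from the paternal copy. An array reads the RNA of both copies together, so the values say how much RNA a gene made and nothing of which copy made it. Values are log2 signals, on which a difference of 1 is a doubling, and the level of one probeset cannot be set against that of another. In bulk RNA, fewer cells of a type and less RNA per cell cannot be told apart.

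Mest and Cdkn1c had lower expression at 100 pM E2 than in vehicle, and the remaining 6 measured genes passed no test after correction. A gene is called here when its adjusted p in limma, corrected by the Benjamini-Hochberg method over all 19938 genes, was below 0.05. In the comparison of 100 pM E2 with vehicle 2 of 8 imprinted growth genes were called, both lower, where 1.13% of all genes were called in either direction and 0.687% were called as lower. The difference was negative for 7 of the 8 genes (87.5%) and for 47% of all genes, and its median was -0.08 against 0.00 over all genes. Only the differences of Mest and Cdkn1c were called, so the signs of the remaining 6 are a description. The genes were listed with earlier results of these data known, so their counts beside the shares of all genes are also a description. Averaged over the 8 genes, the log2 signal per array lay between 8.49 and 8.52 in vehicle, between 8.42 and 8.49 at 10 pM and between 8.35 and 8.39 at 100 pM, so that the 100 pM arrays did not overlap the others. This average includes Mest and Cdkn1c, whose differences were the largest, so it does not show a shift of the remaining 6.

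**Figure D1:**
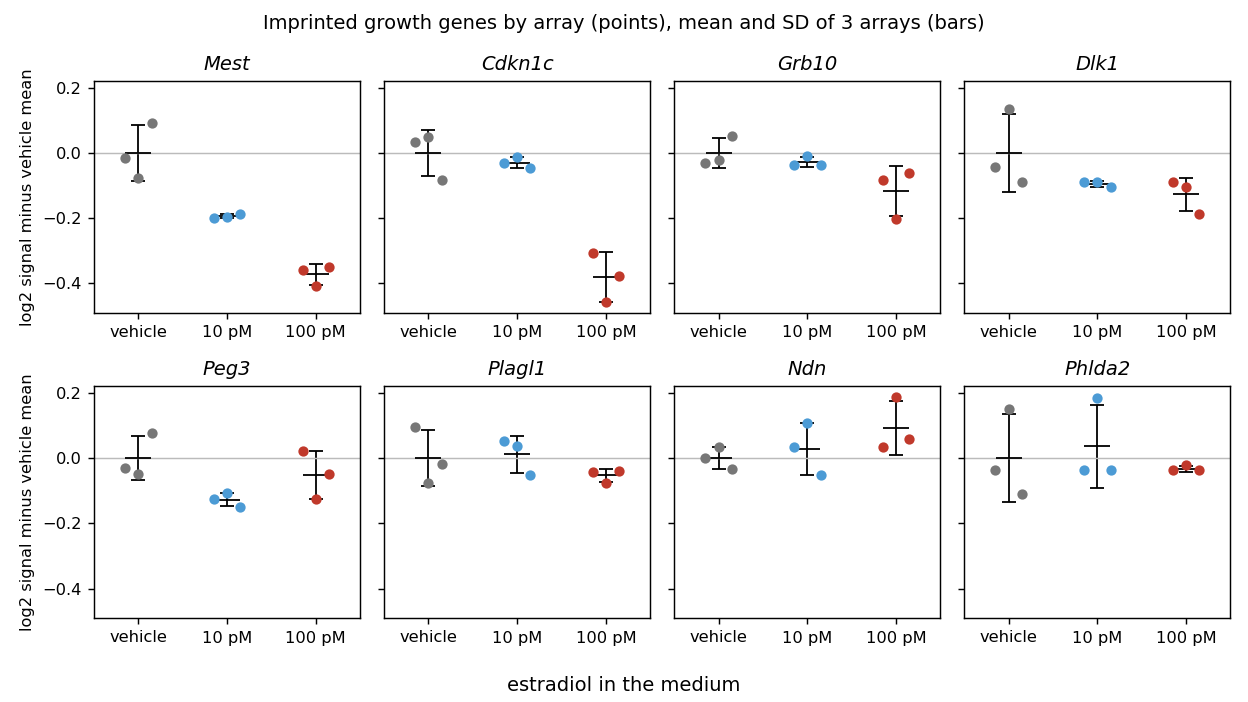
Log2 signal of the 8 measured imprinted growth genes on each array, minus the mean of the 3 vehicle arrays of that gene, by estradiol in the medium. Points are arrays, and bars give the group mean with its SD (3 arrays). The 100 pM arrays of Mest and Cdkn1c lie below all vehicle and 10 pM arrays of the same gene, whereas the 10 pM arrays of Cdkn1c lie within the range of vehicle.

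Mest encodes a hydrolase-like protein of the endoplasmic reticulum membrane, and loss of its paternal copy slows the growth of mouse fetuses. An intron of Mest holds the microRNA gene Mir335. The mouse gene has a CpG-rich start region, which is methylated on the maternal copy, and a further start lies upstream of it. The windows of both starts are shown because Mest was the gene whose groups were all separate from each other, with every CpG in capitals (RefSeq, GRCm38.p6, plus strand, 250 bases before to 50 after the start). The upstream window, chr6:30733256-30733555, held 8 CpG, and the CpG-rich one, chr6:30737800-30738099, held 17, against a median of 7 over 32851 promoter windows.
Mest upstream start: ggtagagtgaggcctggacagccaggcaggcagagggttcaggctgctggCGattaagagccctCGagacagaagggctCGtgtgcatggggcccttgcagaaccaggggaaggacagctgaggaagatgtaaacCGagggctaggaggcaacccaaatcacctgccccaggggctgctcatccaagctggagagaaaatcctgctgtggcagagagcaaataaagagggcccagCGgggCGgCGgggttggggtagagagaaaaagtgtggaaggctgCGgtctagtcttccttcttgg
Mest CpG-rich start: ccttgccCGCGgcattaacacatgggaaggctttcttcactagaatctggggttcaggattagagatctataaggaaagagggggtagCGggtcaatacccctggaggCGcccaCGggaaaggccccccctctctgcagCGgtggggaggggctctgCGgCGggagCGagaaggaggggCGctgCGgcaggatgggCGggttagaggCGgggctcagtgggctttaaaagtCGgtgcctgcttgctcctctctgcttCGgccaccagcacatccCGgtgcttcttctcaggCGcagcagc
The mature microRNAs of Mir335 are shown because the array had a probeset for this gene inside Mest, with bases 2 to 8, the seed that pairs with targets, in capitals.
mmu-miR-335-5p: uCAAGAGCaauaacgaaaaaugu
mmu-miR-335-3p: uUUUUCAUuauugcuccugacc

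Expression of Mest was lower at 100 pM E2 than in vehicle, with the 10 pM arrays in between. Its log2 signals were 6.77, 6.71 and 6.88 in vehicle, 6.59, 6.59 and 6.60 at 10 pM E2 and 6.43, 6.38 and 6.44 at 100 pM E2. No array of one group overlapped those of another, and the lowest vehicle array lay above the highest 10 pM array. The group means were 6.79 ± 0.09, 6.59 ± 0.01 and 6.42 ± 0.03 (SD, n = 3 each) in the order vehicle, 10 pM and 100 pM. Between 100 pM E2 and vehicle the log2 difference was -0.37 ± 0.05 (SE; 95% interval -0.48 to -0.27), which is 0.773 times the vehicle signal, with an adjusted p of 0.00675 in limma. The step between 10 pM E2 and vehicle was -0.19 ± 0.05, and that between 100 pM and 10 pM E2 was -0.18 ± 0.05, so the steps were of like size. Neither step was called, with adjusted p of 1 and 0.168 in limma and unadjusted p of 0.00221 and 0.00381. Mest was also called in the limma F test over the 3 groups (adjusted p = 0.0157). In one-way analysis of variance its adjusted p was 0.116. The F test called no imprinted growth gene with all probesets tested, without the first vehicle array or without the second array of 100 pM E2.

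The call of Mest between 100 pM E2 and vehicle was kept in 17 of 18 alternative settings, with differences between -0.41 and -0.33. It was lost only when the 10 pM arrays were left out of the fit altogether (adjusted p = 0.0725 in limma). Leaving out any single array left adjusted p between 0.0126 and 0.035.

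The microRNA gene inside Mest did not pass a test. Log2 signals of Mir335 were 5.96, 5.87 and 5.70 in vehicle, 5.77, 5.79 and 5.59 at 10 pM E2 and 5.74, 5.76 and 5.81 at 100 pM E2, and the groups overlapped. The difference between 100 pM E2 and vehicle was -0.08 ± 0.07 (adjusted p = 0.754 in limma). This probeset reads the transcript of the microRNA gene and not a mature arm, and it was chosen for description after the annotation of Mest had been read. The neighbours of Mest in its imprinted domain were Copg2, which encodes a coat protein subunit of transport vesicles, at -0.09 ± 0.05 (adjusted p = 0.564), and Klf14, a zinc finger factor, at 0.05 ± 0.05 (adjusted p = 0.768).

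Cdkn1c, a cyclin-dependent kinase inhibitor that holds cells in the first gap phase of the cell cycle, had lower expression at 100 pM E2, against both vehicle and 10 pM E2. Its log2 signals were 8.60, 8.62 and 8.49 in vehicle, 8.54, 8.56 and 8.52 at 10 pM E2 and 8.26, 8.11 and 8.19 at 100 pM E2. The 10 pM arrays all lay inside the range of vehicle, and every 100 pM array lay below the lowest array of the other groups. Group means were 8.57 ± 0.07, 8.54 ± 0.02 and 8.19 ± 0.08 (SD, n = 3 each) in the order vehicle, 10 pM and 100 pM. The difference between 100 pM E2 and vehicle was -0.38 ± 0.05 (95% interval -0.49 to -0.27), or 0.768 times the vehicle signal, with an adjusted p of 0.00884 in limma. Between 100 pM and 10 pM E2 it was -0.35 ± 0.05 (95% interval -0.46 to -0.24; adjusted p = 0.0166), whereas between 10 pM E2 and vehicle it was -0.03 (95% interval -0.14 to 0.08; adjusted p = 1).

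Cdkn1c was the only one of the 8 genes called between 100 pM and 10 pM E2, where 0.833% of all genes were called and 0.607% were called as lower. In the F test over the 3 groups Cdkn1c (adjusted p = 0.014) and Mest made 2 of 8 genes called, against 0.843% of all genes. In one-way analysis of variance the adjusted p of Cdkn1c was 0.116. The call of Cdkn1c against vehicle was kept in 15 of 18 alternatives. Without the first vehicle array its adjusted p against vehicle was 0.0561 in limma, and with the 10 pM arrays left out of the fit altogether it was 0.0876. Without the second vehicle and second 100 pM arrays together it was 0.0957. The call against 10 pM E2 was kept in 11 of 18. It was lost without any of the 3 arrays of 10 pM E2 (adjusted p = 0.0746 to 0.0869 in limma) or without the second array of 100 pM E2 (0.0528). It was also lost with all probesets tested (0.0621), with only the compared groups fitted (0.0851) and without the second vehicle and second 100 pM arrays together (0.0881).

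Whether Mest and Cdkn1c differed in their dose response was tested on the 9 arrays, a test that was not among those planned. With 3 arrays per group its p could not fall below 0.1, so it cannot decide the question. The difference between 10 pM E2 and vehicle was lower for Mest than for Cdkn1c by 0.16 on the log2 scale, and that between 100 pM and 10 pM E2 was higher for Mest by 0.17. Each of these gave a two-sided p of 0.1 in an exact permutation test of the per-array difference of the 2 genes (n = 3 each), which is the smallest that 3 arrays against 3 can give. Between 100 pM E2 and vehicle the 2 genes differed in their change by 0.01 (exact p = 1).

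**Figure D2:**
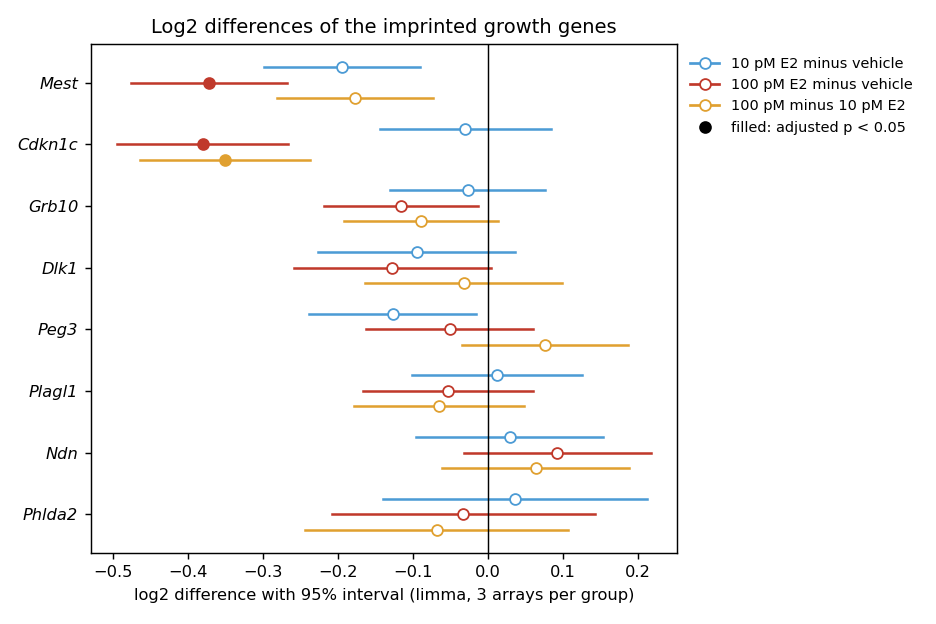
Log2 differences of the 8 measured imprinted growth genes (horizontal axis, with 95% intervals from limma, 3 arrays per group) for each pair of groups. Filled points had an adjusted p below 0.05. Only Mest and Cdkn1c have filled points, at -0.37 and -0.38 for 100 pM E2 against vehicle, and Cdkn1c also at -0.35 for 100 pM against 10 pM E2.

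Grb10 encodes an adaptor protein that binds the insulin and IGF-1 receptors and dampens their signal. Log2 signals of Grb10 were 11.69, 11.70 and 11.77 in vehicle, 11.68, 11.71 and 11.68 at 10 pM E2 and 11.63, 11.51 and 11.65 at 100 pM E2. All 100 pM arrays lay below all other arrays, with 1 of them well below its group. The difference between 100 pM E2 and vehicle was -0.12 ± 0.05 (95% interval -0.22 to -0.01), with an unadjusted p of 0.0311 and an adjusted p of 0.394 in limma, and it was -0.073 without the second array of 100 pM E2. With Mest and Cdkn1c, Grb10 made 3 of 8 genes whose 100 pM arrays did not overlap vehicle, where 12.5% of all genes did not. The same 3 genes were separate between 100 pM and 10 pM E2, where 12.3% of all genes were.

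Phlda2 encodes a small pleckstrin homology domain protein that restrains growth of the mouse placenta. Its log2 signals were 5.27, 5.46 and 5.20 in vehicle, 5.27, 5.49 and 5.27 at 10 pM E2 and 5.27, 5.29 and 5.27 at 100 pM E2. The groups overlapped fully, and 5 of the 9 arrays held the same value to the last digit deposited. The difference between 100 pM E2 and vehicle was -0.03 ± 0.08 (95% interval -0.21 to 0.14). Phlda2 was the only one of the 8 genes among the dimmest 30% of all genes.

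Dlk1 encodes a transmembrane protein with EGF-like repeats, related to the Notch ligands, that keeps precursor cells such as preadipocytes undifferentiated. Log2 signals of Dlk1 were 7.55, 7.72 and 7.50 in vehicle, 7.50, 7.50 and 7.49 at 10 pM E2 and 7.50, 7.48 and 7.40 at 100 pM E2. The third vehicle array lay at the level of the treated arrays, so the groups overlapped. The difference between 100 pM E2 and vehicle was -0.13 ± 0.06 (95% interval -0.26 to 0.00; adjusted p = 0.475 in limma), and without the second vehicle array it was -0.060. The value 7.50 occurred to the last digit in 4 arrays from all 3 groups.

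Peg3, a zinc finger protein linked to cell survival and to maternal behaviour in mice, had its lowest mean at 10 pM E2. Its signals were 10.28, 10.26 and 10.38 in vehicle, 10.18, 10.20 and 10.16 at 10 pM E2 and 10.33, 10.18 and 10.26 at 100 pM E2. The 10 pM arrays lay below every vehicle array, whereas the 100 pM arrays overlapped both other groups. Between 10 pM E2 and vehicle the difference was -0.13 ± 0.05 (95% interval -0.24 to -0.02; unadjusted p = 0.0294, adjusted p = 1 in limma), and between 100 pM E2 and vehicle it was -0.05 ± 0.05 (adjusted p = 0.765). The second of these was -0.012 without the third vehicle array and -0.014 without the second array of 100 pM E2.

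Plagl1 is a zinc finger factor that activates other imprinted genes in mouse cells and can halt the cell cycle. Its signals were 7.82, 7.65 and 7.71 in vehicle, 7.78, 7.76 and 7.67 at 10 pM E2 and 7.68, 7.65 and 7.69 at 100 pM E2, a set of overlapping groups. The difference between 100 pM E2 and vehicle was -0.05 (95% interval -0.17 to 0.06), and without the first vehicle array it was -0.0061. Ndn, a MAGE family protein that restrains proliferation of neurons and preadipocytes, was the only one with a higher mean at 100 pM E2 than in vehicle. Signals of Ndn were 10.00, 10.03 and 9.96 in vehicle, 10.03, 10.10 and 9.94 at 10 pM E2 and 10.03, 10.18 and 10.05 at 100 pM E2. The groups overlapped, since 1 array of each group shared the value 10.03 to the last digit, and the difference between 100 pM E2 and vehicle was 0.09 ± 0.05 (95% interval -0.03 to 0.22; adjusted p = 0.602 in limma), or 0.045 without the second array of 100 pM E2.

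The lower dose alone left no gene called. Between 10 pM E2 and vehicle 0 of 8 genes were called in limma, where 0% of all genes were called. At an unadjusted p below 0.05 were 2 of 8, Mest and Peg3, where 3.54% of all genes were, and the same 2 genes had no overlap between 10 pM and vehicle arrays, where 5.93% of all genes had none. The intervals still allow changes of moderate size, for example -0.23 to 0.04 for Dlk1, -0.13 to 0.08 for Grb10, -0.10 to 0.15 for Ndn and -0.14 to 0.21 for Phlda2.

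Non-monotonic responses were tested by setting 10 pM E2 against the average of the other 2 groups. By this contrast 0 of 8 genes were called in limma, where 0.00502% of all genes were. Cdkn1c, at 0.16 (unadjusted p = 0.00499, adjusted p = 0.597), and Peg3, at -0.10 (unadjusted p = 0.0409, adjusted p = 0.88), made 2 of 8 genes at an unadjusted p below 0.05, where 5.61% of all genes were. The 10 pM mean of Cdkn1c lay between the means of the other groups, so it had the form of neither an inverted U nor a U. Peg3 had the form of a U but did not pass the test. Plagl1 and Phlda2 had their highest means at 10 pM E2, the form of an inverted U. They did not pass it either, at 0.04 and 0.05 (adjusted p = 0.941 and 0.951 in limma).

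The promoter windows of the imprinted growth genes were searched for motifs, since the treatment was an estrogen. Of the 9 genes, 7 had entries, with 10 windows of 300 bases between them, and Cdkn1c and H19 had none. The full estrogen response element, spelled GGTCANNNTGACC, was in 0 of 10 windows and in 0.07% of all windows. Its half-site, GGTCA, was in 3 of 10 windows and in 40.5% of all windows. In the CpG-rich window of Mest printed above, it begins 160 bases before the start and runs forward, directly after a CpG. The other 2 windows were that of a nearby Mest start, which overlaps the first, and 1 of Grb10. The AP-1 site TGANTCA was in 0 of 10 windows and in 7.81% of all, and the GC box GGGCGG was in 7 of 10 and in 35.7%. Both strands were searched, and each full element also counts as a half-site. A match is a description of letters and not a binding site.

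CpG content differed among the promoters of these genes. One Grb10 window held 45 CpG, and another held 9. Phlda2 and Plagl1 held 26 each, Peg3 held 13, Ndn held 11 and Dlk1 held 9, against 8 and 17 at the Mest starts.

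Other imprinted genes were read beside them. Of 55 listed, 46 had a value, and 4 of these were called between 100 pM E2 and vehicle, 3 lower and 1 higher, against 1.13% of all genes. Their median difference was 0.01, with 47.8% of them lower. Between 10 pM E2 and vehicle 0 were called (1 at an unadjusted p below 0.05), and between 100 pM and 10 pM E2 1 was. Together with the imprinted growth genes, 6 of 54 measured imprinted genes were called (11.1%), 5 of them lower. Both lists were chosen with earlier results of these data known, so this share is a description. Whether each of the 54 is imprinted in UGS mesenchyme was not measured.

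The genes called were Zim1, Dcn, Ppp1r9a and Impact. Zim1, a zinc finger gene beside Peg3, had signals of 8.46, 8.20 and 8.39 at 100 pM E2, against 8.78, 8.65 and 8.84 in vehicle, a difference of -0.41 ± 0.08 (adjusted p = 0.0452). Dcn, which encodes the matrix proteoglycan decorin, had 11.70, 11.57 and 11.75 at 100 pM E2, against 11.95, 11.91 and 11.92 in vehicle, a difference of -0.25 ± 0.05 (adjusted p = 0.0421). It was also called against 10 pM E2, at -0.32 ± 0.05 (adjusted p = 0.0197), a call kept in 12 of 18 alternatives and lost without any of the 3 arrays of 10 pM E2 (0.0855 to 0.0918). Ppp1r9a, an actin-binding scaffold protein, was at -0.22 ± 0.04 (adjusted p = 0.0442), and Impact, a regulator of translation under stress, was at 0.25 ± 0.05 (adjusted p = 0.0485). All 4 lay close to the threshold, and each lost its call in 12 or more of 18 alternative settings, with adjusted p up to 0.184 for Zim1, 0.188 for Dcn, 0.185 for Ppp1r9a and 0.205 for Impact. The count of 4 was 0 without any one array of vehicle or of 10 pM E2, 0 without the second array of 100 pM E2, and 1 without the first or the third.

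Genes that lie beside the imprinted growth genes gave 1 call in 6 domains between 100 pM E2 and vehicle, where 1.13% of all genes were called. At that share a count of 0 among so few neighbours says little about them. In the Kcnq1ot1 domain, which holds Cdkn1c and Phlda2, 0 of 9 measured neighbours were called, with differences between -0.03 and 0.09. In the domain of Dlk1, 0 of 4 neighbours were called (-0.04 to 0.09), among them Meg3, a maternally expressed noncoding RNA, at -0.04 ± 0.04 (adjusted p = 0.755). Beside Grb10, the enzyme gene Ddc was at -0.20 ± 0.07 (adjusted p = 0.316) and Cobl at -0.05 ± 0.04. In the Prader-Willi domain of Ndn, 0 of 3 neighbours were called (-0.02 to 0.10). In the Peg3 domain Zim1 was called as lower, Peg3 itself was not, and Usp29 was at 0.09 ± 0.07. Igf2, the fetal growth factor of the H19 domain, was at -0.02 ± 0.06 (95% interval -0.16 to 0.12), and its receptor and scavenger Igf2r at -0.06 ± 0.04 (95% interval -0.16 to 0.04).

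**Figure D3:**
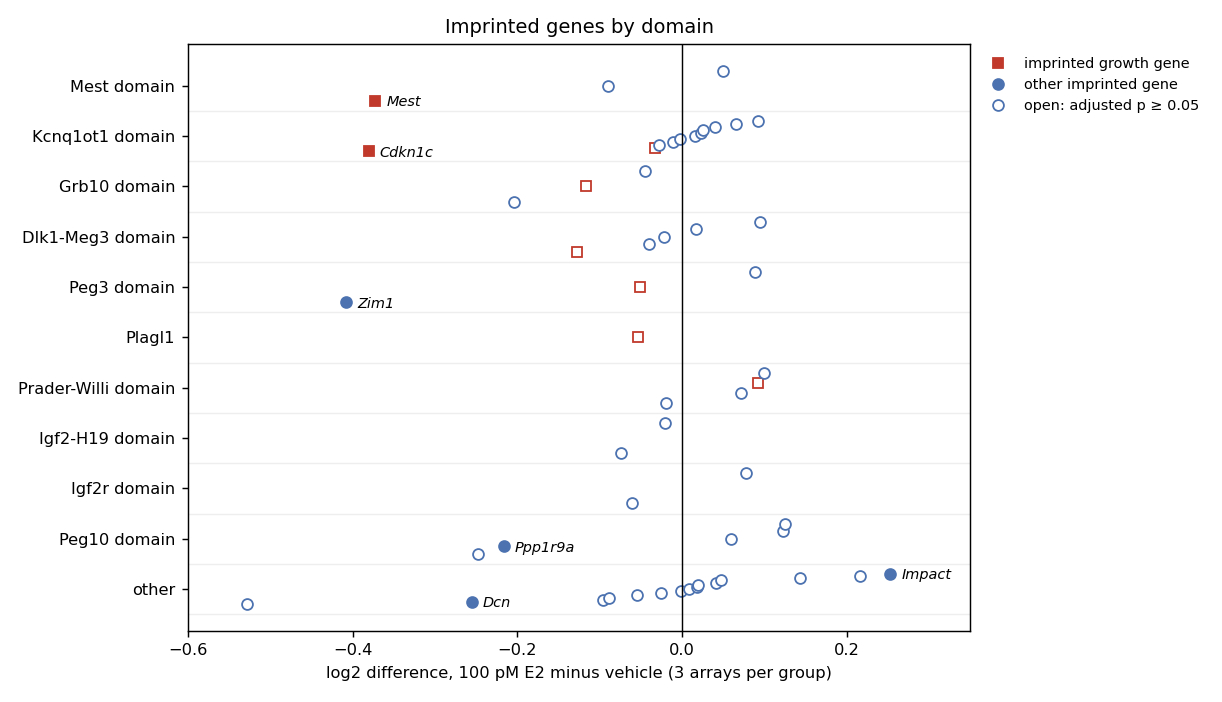
Log2 difference between 100 pM E2 and vehicle (horizontal axis, 3 arrays per group) of 54 measured imprinted genes, by imprinted domain. Squares are imprinted growth genes, circles are other imprinted genes, and filled symbols had an adjusted p below 0.05. Mest at -0.37 and Cdkn1c at -0.38 lie apart from the neighbours in their domains, and Zim1 at -0.41 lies beside Peg3 at -0.05.

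Relatives of the imprinted growth genes, 15 measured of 16 listed, gave 1 call between 100 pM E2 and vehicle, against 1.13% of all genes. The list holds Magel2, which is itself imprinted and was also counted among the neighbours of Ndn. Ephx1, an epoxide hydrolase of the same fold class as Mest, had signals of 9.39, 9.55 and 9.41 at 100 pM E2, against 9.08, 9.01 and 9.14 in vehicle, a difference of 0.37 ± 0.05 (adjusted p = 0.0134). It was opposite in sign to Mest and was at -0.02 ± 0.05 between 10 pM E2 and vehicle (adjusted p = 1). The call of Ephx1 against vehicle was kept in 12 of 18 alternatives. It was lost without the first vehicle array (adjusted p = 0.0678), without the second (0.0567), without the second vehicle and second 100 pM arrays together (0.0769), with the replicate block (0.0512), with all probesets tested (0.0524) and with only the compared groups fitted (0.103). Cdkn1b, an inhibitor of the same family as Cdkn1c, had 8.34, 8.24 and 8.40 at 100 pM E2, against 8.61, 8.54 and 8.55 in vehicle. It was named after its values were seen, and its difference of -0.24 ± 0.05 was not called (adjusted p = 0.0712), although it passed without the dimmest genes (0.0347) and with limma's trend and robust options (0.0321).

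Partners and targets gave 1 call between 100 pM E2 and vehicle among 33 measured of 35 listed, against the same 1.13% of all genes. Ccnd1, the cyclin of the kinase complexes that drive the first gap phase, had signals of 9.57, 9.64 and 9.53 at 100 pM E2, against 9.08, 9.19 and 9.16 in vehicle, and was called as higher (adjusted p = 0.00359). The receptors bound by Grb10 were not called, with Igf1r at 0.10 ± 0.04 (adjusted p = 0.446) and Insr at -0.09 ± 0.05 (adjusted p = 0.549), both named after their values were seen. Of 14 genes that keep or erase imprint methylation, all measured, 0 were called in limma in any contrast. Of these 14, 2 had an unadjusted p below 0.05 between 100 pM E2 and vehicle, where 2164 of 19938 genes did, a similar share. They were Uhrf1, which guides the maintenance methyltransferase, at 0.24 ± 0.06 (adjusted p = 0.162), and Tet1, which oxidises methylated cytosine, at -0.35 ± 0.13 (adjusted p = 0.386).

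The genes whose values followed a given member most closely over the 9 arrays were read as a description, since all of them share libraries and treatment groups. For Mest these were Acss3 (Pearson r = 0.974), Fgf18 (0.972) and Lgi2 (0.958), and in the opposite direction Angpt2 (-0.982) and Plk1 (-0.961). For Cdkn1c they were Itga1 (0.991), Eln (0.99) and Pdlim3 (0.983), and in the opposite direction Emcn (-0.985) and Pappa (-0.983). For Phlda2 they were C5ar1 (0.988), Fastkd3 (0.961) and Gm4814 (0.957), with Ficd (-0.955) and Rnf227 (-0.951) opposite, which rests on few arrays, since 5 of its 9 values were equal.

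Among the imprinted growth genes themselves, Mest and Grb10 (r = 0.821), Mest and Cdkn1c (0.79) and Cdkn1c and Grb10 (0.754) ran together over the 9 arrays, and Grb10 and Ndn ran opposite (-0.742). After the group means were taken off, the value for Mest and Cdkn1c was -0.417 and that for Cdkn1c and Grb10 was 0.175, whereas Mest and Grb10 stayed at 0.718. Peg3 ran with Grb10 (0.846) and with Mest (0.802) inside the groups, and Mest and Dlk1 ran opposite (-0.821).

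**Figure D4:**
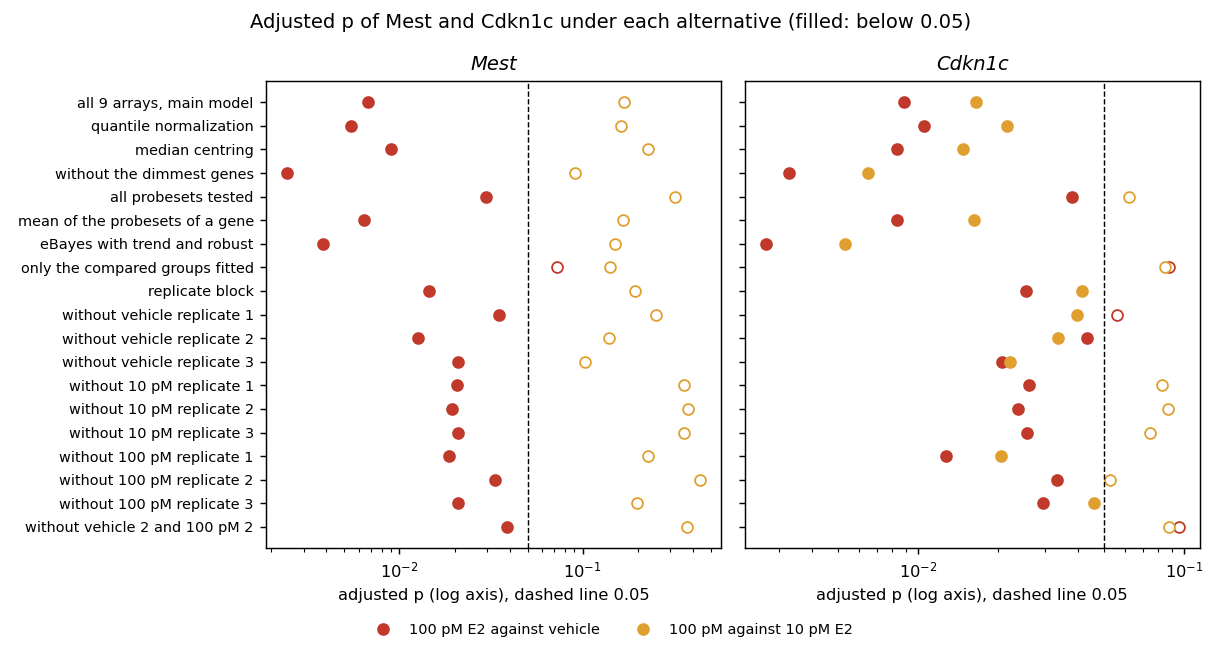
Adjusted p of Mest and Cdkn1c in limma (horizontal log axes, dashed line at 0.05) in the main model and under 18 alternative settings. Red points compare 100 pM E2 with vehicle, yellow points compare 100 pM with 10 pM E2, and filled points lie below 0.05. Mest is filled against vehicle in 17 of 18 alternatives and against 10 pM E2 in 0, whereas Cdkn1c is filled in 15 and 11 of 18.

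Among the mesenchyme markers, Vim lay between 12.89 and 13.12 and Col1a1 between 13.53 and 13.62 on all arrays. Levels of the rest are given only within the mean of their list. Signals of different probesets cannot be compared, so these levels do not establish the cell type. Some markers of cell types moved with dose beside Mest and Cdkn1c, and their part in the results was not tested. Of all genes, 1.13% were called between 100 pM E2 and vehicle, and 0.687% were called as lower. Of 10 measured mesenchyme markers, 2 were called as lower, Pdgfra at -0.45 ± 0.04 (adjusted p = 0.00359) and Col3a1 at -0.18 ± 0.03 (0.0469). The mean level of the list was 10.28 to 10.29 at 100 pM E2, against 10.31 to 10.33 in vehicle. The mean of 7 macrophage markers was 5.63 to 5.75 at 100 pM E2, against 5.96 to 6.10 in vehicle, with 1 called, C1qb at -0.51 ± 0.09 (adjusted p = 0.0433). All 7 were lower at 100 pM E2 than in vehicle, as were 47% of all genes. In limma 4 of the 7 had an unadjusted p below 0.05, where 2164 of 19938 genes did. Between 10 pM E2 and vehicle 6 of the 7 were lower, and 3 had an unadjusted p below 0.05, where 3.54% of all genes did. The mean of 7 epithelial markers was 5.93 to 6.01 at 100 pM E2, against 5.79 to 5.90 in vehicle, and 0 were called in that comparison (1 at an unadjusted p below 0.05), though Krt18 was called against 10 pM E2 at 0.57 ± 0.10 (0.0428). Of 5 endothelial markers, Kdr was lower (-0.98 ± 0.10) and Emcn higher (0.82 ± 0.09), both called, and the list mean was 6.11 to 6.15 at 100 pM E2, against 6.16 to 6.25 in vehicle. Lists for skeletal muscle (6), Schwann cells and glia (2 of 4), adipocytes (5) and smooth muscle (5) gave 0 calls in limma in the comparison of 100 pM E2 with vehicle, where 1 of their markers, Myh11 of smooth muscle, had an unadjusted p below 0.05. Of 18 alternatives, the call against vehicle was kept in 17 for Pdgfra and Kdr, 16 for Emcn, 7 for C1qb and 3 for Col3a1, and that of Krt18 against 10 pM E2 in 7.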

How the data were processed

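RNA of UGS mesenchyme cells was read on 9 Affymetrix mouse ST 1.0 arrays, 3 per group. The deposited values are log2 signals per probeset, which the authors made from scanned images with GCOS and Gene Expression Console (versions and summary method not given in the sources used here). That they are on a log2 scale was read from their range, and no scanner file was used to check scale or centring. With 9 arrays the precision of each value is limited.

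Of 35556 probesets, 21789 had 1 symbol, 1621 with several symbols stayed unnamed, and a further 12146 had none here. Symbols of 21698 probesets were updated by Entrez ID. The probeset of highest mean was kept for 999 genes with several, leaving 19938 genes, with no filter on dim values.

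In limma 3.58.1 (R 4.3.3; lmFit, eBayes) a mean for each group was estimated from all 9 arrays together, with two-sided tests, Benjamini-Hochberg adjustment over all genes and calls at adjusted p below 0.05. The procedure was tested on simulated data. Exact permutation tests used SciPy 1.17.1, and figures used matplotlib 3.10.9. Sequences and CpG counts came from RefSeq tables of GRCm38.p6. Other imprinted genes, relatives, partners and targets, imprint maintenance genes and cell type markers were read as lists by counts and medians, with no set test. The text names all 9 members, the genes of each list called in any contrast (at most 8) or else the 2 of smallest p between 100 pM E2 and vehicle, always Igf2, Igf2r and Meg3, and for the 3 members of largest spread the 3 genes of highest and the 2 of lowest correlation. Neighbours of members and genes said to be named later fall outside that rule, and most marker genes were left as list values. Members and lists were chosen with earlier results of these data known. Alternatives were quantile normalization, median centring, a filter that drops the dimmest 30% of genes, all probesets in place of genes, the mean of a gene’s probesets, eBayes with trend and robust, fitting only the compared groups, the replicate number as a block, one-way analysis of variance, adjusted p below 0.10 and leaving out each array. Leaving out the second vehicle and second 100 pM arrays together was chosen after seeing the data.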

Additional observations from a re-analysis of the deposited data

How the results depend on the processing

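Direction of the Mest and Cdkn1c differences between 100 pM E2 and the other groups was the same in all 18 alternatives. The number of imprinted growth genes called, 2 between 100 pM E2 and vehicle, 1 between 100 pM and 10 pM E2 and 2 in the F test, fell to 0 and 0 in the pairwise comparisons when only the compared groups entered the fit. With all probesets tested it was 2, 0 and 0. Without the second vehicle and second 100 pM arrays together, an alternative chosen after seeing the data, it was 1, 0 and 0. Adjusted one-way analysis of variance called 0 of the 8 genes, and at an unadjusted p below 0.01 it called 2. Leaving out each array gave 1 to 2 between 100 pM E2 and vehicle, 0 to 1 between 100 pM and 10 pM E2 and 0 to 2 in the F test. It gave 0 to 0 for 10 pM E2 against vehicle and for the non-monotonic contrast.

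The count of 4 other imprinted genes was 7 without the dimmest genes, 7 at adjusted p below 0.10, 0 with all probesets, 0 with only the compared groups, 0 with the replicate block, 0 without the second vehicle and second 100 pM arrays together and 0 to 1 on leaving out each array.

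Replicate numbers did not pair the arrays. Correlations of deviations from group means were -0.112 to 0.2 for 9 same-numbered pairs and -0.189 to 0.168 for 18 others, and not every array correlated best with its own number. With the replicate block, the adjusted p of Mest and Cdkn1c between 100 pM E2 and vehicle was 0.0145 and 0.0254, and the block changed no call of an imprinted growth gene.

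Signs of values that were not called turned in some settings. On leaving out each array, the difference between 100 pM E2 and vehicle ranged over -0.088 to 0.042 for Phlda2, -0.059 to 0.051 for Igf2 and -0.0070 to 0.10 for S100b, a glial marker. That between 10 pM E2 and vehicle ranged over -0.026 to 0.059 for Plagl1, -0.0099 to 0.070 for Ndn and -0.038 to 0.11 for Phlda2, and that between 100 pM and 10 pM E2 over -0.11 to 0.0052 for Phlda2. The non-monotonic contrast ranged over -0.027 to 0.015 for Mest, -0.054 to 0.0023 for Dlk1, -0.056 to 0.024 for Ndn and -0.022 to 0.090 for Phlda2. Without the second vehicle and second 100 pM arrays together, the values between 100 pM E2 and vehicle were 0.037 for Phlda2 and 0.051 for Igf2, that of Plagl1 between 10 pM E2 and vehicle was -0.026, and the non-monotonic values were 0.0077 for Dlk1 and 0.015 for Ndn. The cause of these changes was not tested.

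Over the whole table, the count called between 100 pM E2 and vehicle, 226, was 343 without the dimmest genes, 349 with trend and robust, 119 with all probesets, 10 with only the compared groups, 76 without the 2 second arrays and 88 to 259 on leaving out each array. Between 100 pM and 10 pM E2 the count, 166, was 291, 284, 30, 1 and 64 under the same settings and 30 to 178 on leaving out each array.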

Other observations

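Many deposited values were equal to the last digit between arrays. Over all genes 72.7% had at least 1 value shared by several of the 9 arrays, 27.8% had a value shared by 4 or more and 12.5% by 5 or more, and 11 genes were constant. Among the imprinted growth genes 5 of 8 had such a value, namely Phlda2 in 5 arrays, Dlk1 in 4, Ndn in 3, and Grb10 and Peg3 in 2 each. The 9 values of Mest, of Cdkn1c and of Plagl1 were all distinct.

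The 10 pM arrays had the smallest SD of the 3 groups for 5 of 8 imprinted growth genes (62.5%) and for 38.2% of all genes. For Mest the SD was 0.0855 in vehicle, 0.00618 at 10 pM E2 and 0.0314 at 100 pM E2, and for Cdkn1c it was 0.071, 0.0161 and 0.0757 in the same order.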
